A study of Mus musculus with 10 samples.

Results

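Cells that carried transcripts of Col22a1 were examined in single-cell RNA-seq libraries of the mouse supraspinatus enthesis, where this shoulder tendon inserts into bone. A cell was taken as a Col22a1 cell when it had at least 500 detected genes, at most 10% of its counts in mitochondrial genes and at least 2 UMIs (counted transcript molecules) of Col22a1. It also had to lack any UMI of Ptprc, the leukocyte antigen Cd45, and of Cdh5, the cadherin of endothelial junctions. This rule took 320 of 13479 kept cells, namely 71 of 2952 at P11, 10 of 5396 at P18 and 239 of 5131 at P56. They were set against cells of the same library with no Col22a1 UMI, at least 1 UMI of Tnmd (tenomodulin, a membrane protein of tendon cells) and no UMI of Ptprc or Cdh5, called Tnmd cells here. There were 1386, 574 and 1451 Tnmd cells at P11, P18 and P56.

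Wild-type C57BL/6 mice of postnatal day 11, 18 and 56 (P11, P18, P56) gave 1 droplet library each, made per the labels' protocols from pooled, dissected entheses after red cell lysis and a sort for cells without Cd45 and without the dead-cell dye DAPI. Each age had a single library, which allows no test between ages, and mice cannot be told apart within a library. Gli1CreERT;Ai14 mice, in which tamoxifen (given at P5 and P7) marks cells that express the Hedgehog target Gli1 and their progeny, gave 7 plates of single wells, 1 for each of 7 ages from P7 to P42. Those plates were used once, at the end, and the wording of their sort does not make clear whether red or non-red cells were collected.

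The 3 droplet libraries held 40082499 to 53725468 counts over 3263 to 5588 barcodes. The P18 library stood apart: 2536 of its 5396 kept cells had a Ptprc UMI in spite of the sort, against 436 of 2952 at P11 and 0 of 5131 at P56. Between 4 and 9 barcodes were shared by any pair of libraries, and none of them belonged to a Col22a1 cell. Doublets were not removed, because the automatic threshold of the caller marked at most 0.08% of a library's barcodes.

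Collagen XXII, the product of Col22a1, is a non-fibrillar collagen that sits at tissue boundaries. It is best known from the myotendinous junction, where muscle fibre ends press into tendon matrix through laminin and integrin links. Chodl encodes chondrolectin, a membrane lectin, and Ptx4 encodes a long pentraxin; both had been proposed from these data as markers of junction cells. In mm10, with GENCODE M21 annotation, Col22a1 (ENSMUSG00000079022) lies on the minus strand at chr15:71795795-72034227, Chodl (ENSMUSG00000022860) on the plus strand at chr16:78930948-78951733 and Ptx4 (ENSMUSG00000044172) on the plus strand at chr17:25120760-25125292.

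The promoters of 3 genes are shown because the results turn on these genes. Chodl divided the Col22a1 cells, Rapgef4 was higher in both fits below, and Clic5 marked a part of the Col22a1 cells that lacked Chodl. Each is the 250 bases before the RefSeq start site in GRCm38.p6, plus strand, and capitals mark the E-box CANNTG, the letters bound by basic helix-loop-helix factors such as Scx.
Chodl (chr16:78930698-78930947): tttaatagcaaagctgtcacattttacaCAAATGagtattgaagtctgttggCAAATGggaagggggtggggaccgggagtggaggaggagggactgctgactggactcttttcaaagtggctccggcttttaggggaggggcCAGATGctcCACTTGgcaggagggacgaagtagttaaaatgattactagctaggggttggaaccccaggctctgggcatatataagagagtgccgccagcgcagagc
Rapgef4 (chr2:71980965-71981214): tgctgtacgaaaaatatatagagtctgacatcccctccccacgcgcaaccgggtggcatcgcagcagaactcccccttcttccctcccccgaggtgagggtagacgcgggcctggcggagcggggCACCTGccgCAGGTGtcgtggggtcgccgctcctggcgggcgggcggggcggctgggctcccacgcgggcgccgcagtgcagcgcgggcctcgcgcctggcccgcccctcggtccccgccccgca
Clic5 (chr17:44188322-44188571): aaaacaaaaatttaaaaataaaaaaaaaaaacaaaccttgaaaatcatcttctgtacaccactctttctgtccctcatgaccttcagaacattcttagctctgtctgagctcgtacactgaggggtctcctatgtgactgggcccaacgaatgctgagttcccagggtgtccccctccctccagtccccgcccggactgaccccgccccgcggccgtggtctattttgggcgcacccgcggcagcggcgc
The Chodl window held 4 matches, the Rapgef4 window 2 and the Clic5 window 0. CANNTG reads the same way on both strands and was present in 66.2% of all 32851 windows of this length. The TEAD letters CATTCC, searched on both strands, were in none of these windows and in 12.6% of all windows. A match is a match of letters only.

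The Col22a1 cells were not of one kind, and the label of myotendinous junction cells held for only part of them. In most cells at P11 and P56 one of 2 marker sets was present and the other was near 0, as the scatter of marker UMIs per cell shows. A cell was called Chodl/Ptx4-marked with at least 2 UMIs of Chodl and Ptx4 together and fewer than 2 of Htra4, Clic5 and Tspan15 together. The reverse made a cell lining-gene-marked, since Htra4 (a secreted protease), Clic5 (an intracellular chloride channel family protein) and Tspan15 (a tetraspanin) stood in the list of joint lining genes. This split was chosen after the values were seen, so it is given as a description and without a test. The rule keeps the other set below 2 UMIs in each kind, so low counts of that set are part of the definition. Of 91 P11 cells with a Cdh5 UMI, 42 had Clic5, 34 had Tspan15 and 2 had Htra4. At P11, 38 of 71 Col22a1 cells were Chodl/Ptx4-marked and 31 were lining-gene-marked. At P56 the numbers were 190 and 42 of 239. At P18 only 2 of 10 were Chodl/Ptx4-marked and 1 was lining-gene-marked, while 7 had at least 10 UMIs of the bone matrix genes Bglap, Bglap2 and Ibsp together and neither marker set. P11 and P56 had 1 such bone-gene-marked cell each. Of the rest, 3 cells carried both sets and 4 cells, all at P56, carried none.

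**Figure D1:**
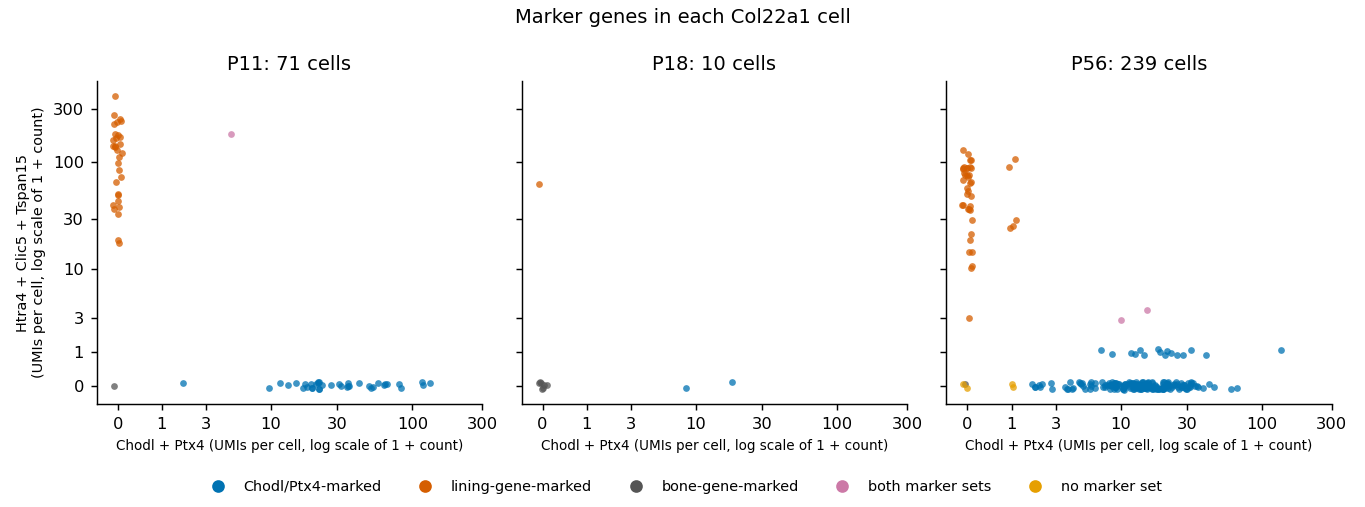
UMIs of Chodl plus Ptx4 (x axis) and of Htra4 plus Clic5 plus Tspan15 (y axis) in every Col22a1 cell, on a log scale of 1 + count with a small random offset, in 1 panel per age; colours give the kind of cell. Most of the 71 cells at P11 and 239 cells at P56 lie along one axis or the other; at P18, 7 of 10 cells lie at the origin and carry bone genes instead.

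In the 38 Chodl/Ptx4-marked cells at P11, Chodl ranged from 1 to 108 UMIs per cell with a median of 23, and Ptx4 from 1 to 21 with a median of 5.5. Tnmd was found in all 38, at 5 to 131 UMIs with a median of 46.5, and Htra4, Clic5 and Tspan15 had no UMI in any of them. The 31 lining-gene-marked cells of the same library had no Chodl and no Ptx4 UMI. They carried 3 to 218 UMIs of Htra4 (median 64), up to 144 of Clic5 (median 31) and 3 to 653 of Prg4 (median 143), the joint lubricant lubricin. Tnmd was at 0 in 30 of these 31, and the other one had 246 UMIs of it. That cell was the deepest Col22a1 cell at P11, with 50111 UMIs. It was also the 1 Col22a1 cell taken out there when the highest doublet scores were removed. The cells differed in depth as well, with a median of 9603 total UMIs in the Chodl/Ptx4-marked and 18623 in the lining-gene-marked cells. The deeper cells were thus those without Chodl.

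At P56 there were more cells of both kinds, and Tnmd, which the marker rule does not use, differed in the same way. Chodl had a median of 8 UMIs and a maximum of 78 in the 190 Chodl/Ptx4-marked cells, and it was found in 2 of the 42 lining-gene-marked cells, with at most 1 UMI. Ptx4 had a median of 6 and a maximum of 53 UMIs against at most 1 UMI in 3 of the 42. Tnmd was detected in 182 of 190 and in 5 of 42 cells. Those 5 cells had 1 to 3 UMIs of it and 7458 to 40257 UMIs in all, beside a median of 15631 in the 42. Whether they were doublets was not tested. Clic5 was in 3 of 190 cells, always as 1 UMI, and in 41 of 42 with a median of 36.5. The Col22a1 level itself, which the rule selected on, was 1045 and 1009 CPM (counts scaled to a common total of all counts in the class) in the summed Chodl/Ptx4-marked cells at P11 and P56, and 881.6 and 193.2 CPM in the lining-gene-marked cells. The median per cell was 7 and 5 UMIs in the former kind, and 18 and 3 UMIs in the latter.

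Bone-gene-marked cells carried Bglap (osteocalcin) at up to 2891 UMIs. They had no UMI of Chodl or Ptx4, which their definition keeps below 2 UMIs together. Bglap and Bglap2 are near-identical copies, so the division of reads between them is uncertain. Of the 7 such cells at P18, 2 also had Tnmd, and one of those was led by Ibsp (188 UMIs) with 318 UMIs of the cartilage collagen Col2a1. These 7 cells held 136350 of the 155102 UMIs of all P18 Col22a1 cells, so the summed P18 values below follow them.

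Cells at the edge of the rule were alike in part. Exactly 2 Col22a1 UMIs were present in 3, 2 and 51 cells at P11, P18 and P56, and 14, 5 and 129 cells with a single UMI stayed just outside. At P56, Chodl stood at 833.5 CPM (95% Poisson interval 745.3 to 929.2) in the cells with 2 UMIs and at 341.5 CPM (307.2 to 378.5) in those with 1. For Ptx4 the values were 366.7 and 169.3 CPM, and for Htra4 351.3 and 317.9 CPM. Intervals of this kind cover counting error only.

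To set Chodl against a cell type that should lack it, cells were thinned to 3000 UMIs each. Chodl was then found in 52.1% of Col22a1 cells at P11 (37 of 71; 54.9% without thinning) and in 74.8% at P56 (172 of 230; 79.1% without thinning). In Tnmd cells the thinned shares were 17.0% and 17.4%. Cells with a Ptprc UMI, the background for free RNA, had 0.719% at P11 (3 of 417; 1.83% without thinning), and none were present at P56. Thinning left out 29 Tnmd cells at P11, and 102 Tnmd cells and 9 Col22a1 cells at P56.

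Muscle genes were low in the Chodl/Ptx4-marked cells. Over 24 genes of muscle fibres, summed levels were 49.7 and 70.8 CPM in these cells at P11 and P56, against 53.4 and 130.8 CPM in Tnmd cells. Acta1, skeletal actin, was found in 4 of 38 and 14 of 190 cells, with at most 2 UMIs. In Tnmd cells it was found in 24 of 1386 and 106 of 1451, so its share at P11 was higher in the Chodl/Ptx4-marked cells. After thinning to 3000 UMIs, Acta1 was found in 0 of 38 and 1 of 182 Chodl/Ptx4-marked cells. The thinned Tnmd cells had it in 4 of 1357 and 42 of 1349. The muscle stem cell factor Pax7 and the acetylcholine receptor gene Chrna1, which marks synaptic muscle nuclei, were at 0 in all Chodl/Ptx4-marked cells. Of 15 genes listed for nuclei at muscle fibre ends, 4 were detected at P11 and 9 at P56, at 106.1 and 209.9 CPM in sum, below the 258.7 and 329.3 CPM of Tnmd cells. The tendon transcription factor Scx was at 1081 CPM at P11 and 454.7 CPM at P56, against 281.2 and 184.1 CPM in Tnmd cells and 17.5 and 27.6 CPM in lining-gene-marked cells.

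The exclusion of Cdh5 had a large effect at P56. Among 344 P56 cells with at least 2 Col22a1 UMIs and no Ptprc UMI, 105 (30.5%, exact binomial 95% interval 25.7 to 35.7) had a Cdh5 UMI and so were left out. The share was 34.9% (102 of 292) in Chodl/Ptx4-marked and 2.33% (1 of 43) in lining-gene-marked cells with Col22a1. It was 1.68% (10 of 595) in Chodl/Ptx4-marked cells without Col22a1 and 2.36% (35 of 1486) in cells with Tnmd and without Col22a1. At P11 it was 4.05% (3 of 74).

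The cells so left out had lower levels of endothelial genes than other Cdh5-positive cells: the list of 10 endothelial genes, which does not hold Cdh5, summed to 158.1 CPM in them, to 4124 CPM in Cdh5-positive cells without Col22a1 and to 61.8 CPM in the included Chodl/Ptx4-marked cells. Pecam1, the platelet endothelial adhesion molecule, was found in 8 of the 105. In the sum of the 105 cells Cdh5 stood at 187.6 CPM and Pecam1 at 20.0 CPM, whereas Cdh5-positive cells without Col22a1 had 602.3 CPM of Cdh5 and 799.3 CPM of Pecam1. Their Chodl (1071 CPM), Ptx4 (1218 CPM), Scx (805.0 CPM) and Tnmd (1602 CPM) levels stood beside 1450, 1171, 454.7 and 1659 CPM in the included Chodl/Ptx4-marked cells. The included cells held 51.4% of all Col22a1 UMIs of kept P56 cells, against 91.0% at P11 and 89.7% at P18.

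**Figure D2:**
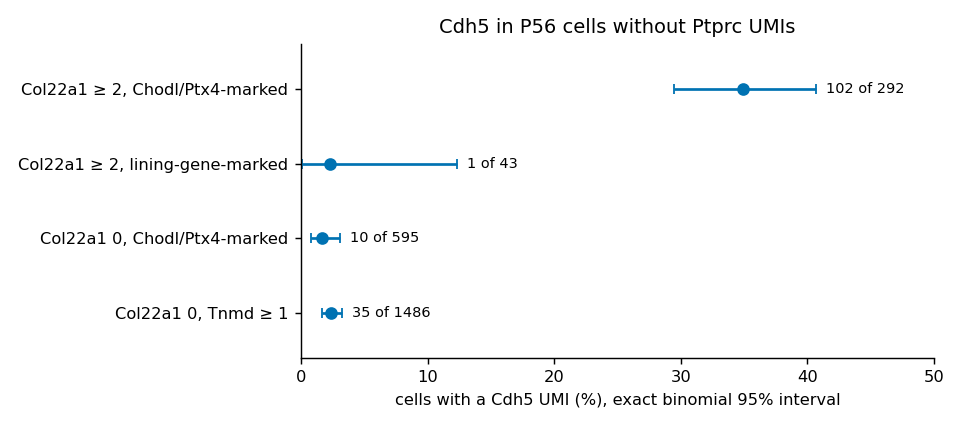
Share of P56 cells with at least 1 Cdh5 UMI (x axis, percent) in 4 classes of cells without Ptprc UMIs; points are shares, bars exact binomial 95% intervals, labels the counts. The class with both Col22a1 and Chodl/Ptx4 lies at 34.9%, and the other 3 classes lie at 2.36% or below.

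Col22a1 cells made up 2.40% of kept cells at P11, with an exact binomial 95% interval of 1.88 to 3.02. In the P18 library the share was 0.185% (interval 0.0889 to 0.341), and in the P56 library it was 4.66% (interval 4.10 to 5.27). Leukocytes took different shares of the libraries, with 436, 2536 and 0 cells carrying Ptprc at P11, P18 and P56. Among cells with neither Ptprc nor Cdh5 the shares were 2.92%, 0.351% and 5.25%. Chodl/Ptx4-marked cells were 1.56% of that population at P11 (1.11 to 2.14) and 4.17% at P56 (3.61 to 4.80), and lining-gene-marked cells were 1.28% (0.868 to 1.80) and 0.923% (0.666 to 1.24). The intervals of the Chodl/Ptx4-marked share did not overlap between the libraries and those of the lining-gene-marked share did. With 1 library per age a change with age cannot be told apart from a difference in dissection or sorting.

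**Figure D3:**
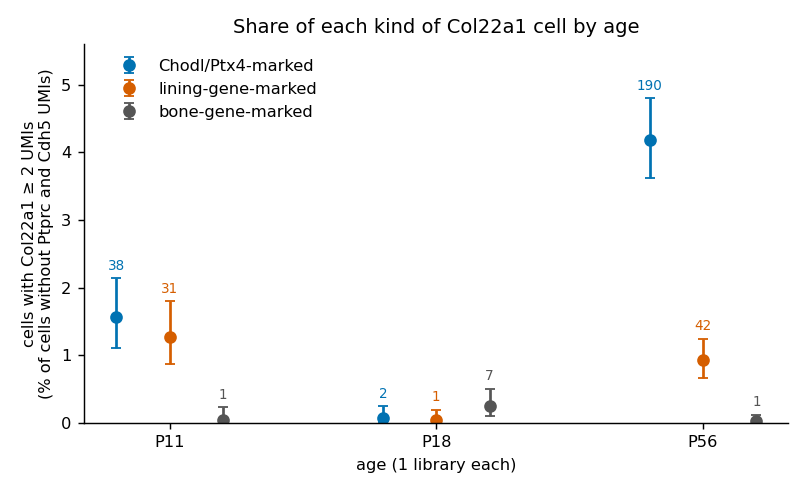
Share of each kind of Col22a1 cell (y axis, percent of cells without Ptprc and Cdh5 UMIs) at P11, P18 and P56; points are shares of 1 library, bars exact binomial 95% intervals, labels numbers of cells. The Chodl/Ptx4-marked share is 1.56% at P11 and 4.17% at P56, and the bone-gene-marked share is the highest of the 3 at P18.

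Not every cell with a given marker set was a Col22a1 cell. Among cells with at least 5 UMIs of Chodl and Ptx4 together, 12.5% (37 of 295) were Col22a1 cells at P11 and 48.8% (176 of 361) at P56. The order was the other way round in cells with at least 5 UMIs of the lining genes, at 73.8% (31 of 42) and 25.3% (41 of 162). Counting any Col22a1 UMI, the P56 shares were 58.5% (211 of 361) for Chodl/Ptx4 and 41.4% (67 of 162) for the lining genes, and the P11 shares were 13.6% (40 of 295) and 76.2% (32 of 42). Col22a1-zero cells with at least 2 Chodl/Ptx4 UMIs had less Postn than the Chodl/Ptx4-marked Col22a1 cells, at 859.2 against 3275 CPM at P11 and 49.3 against 1900 CPM at P56. They had more Dcn (decorin, a proteoglycan that coats collagen fibrils), at 13280 against 2266 CPM and 31510 against 10300 CPM.

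All Col22a1 cells were then compared with Tnmd cells on counts summed per library and class, with the library as a block (edgeR quasi-likelihood test, Benjamini-Hochberg adjusted p under 0.05). Of 11258 genes tested, 167 (1.48%) were higher and 259 (2.30%) were lower in Col22a1 cells. The 6 sums leave 2 residual degrees of freedom, and cells of a library are not replicates. Genes of the rule were not tested, nor were Chodl and Ptx4. The calls depend on the block and the count filter: without the library block no gene passed (982 had an unadjusted p under 0.05), and with at least 10 counts asked of all 6 sums 1 of 1668 genes passed. Genes with the largest log2 fold, such as Bglap2 and Clic5, were those of the bone-gene-marked and lining-gene-marked cells.

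Clic5 was at 1059, 238.6 and 768.6 CPM in Col22a1 cells at P11, P18 and P56, and at 1.04, 0 and 16.1 CPM in Tnmd cells. By cell, Clic5 was at 0 in 41 of 71, 9 of 10 and 195 of 239 Col22a1 cells, and all 37 UMIs at P18 came from the 1 lining-gene-marked cell. Its log2 fold was 7.99 (SE 0.94, adjusted p = 0.00112, higher in 3 of 3 libraries). Htra4 (log2 4.95, SE 1.03, adjusted p = 0.0230) and Tspan15 (log2 4.39, SE 0.78, adjusted p = 0.0103) were higher too. They were 3 of the 9 tested genes of the joint lining list, of which none was lower. Without the P18 library the adjusted p of Htra4 was 0.0801. The median log2 fold of the list was 1.25, beside -0.05 over all genes tested.

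Within the lining-gene-marked cells themselves, Prg4 reached 8911 CPM at P11 and 26100 CPM at P56, against 487.5 and 4583 CPM in Tnmd cells. Cd55, the complement regulator used as a mark of lining fibroblasts, was at 1280 and 1435 CPM against 77.1 and 173.0 CPM. The growth factor Hbegf was at 4674 and 4585 CPM against 49.7 and 190.6 CPM, and the Hedgehog-binding protein Hhip at 680.7 and 1202 CPM against 4.6 and 12.6 CPM. Rgs5, a regulator of G-protein signalling known from pericytes (vessel wall cells), stood at 2965 and 1609 CPM. The lining-gene-marked cells were not tested on their own. In the edgeR test of all Col22a1 cells, Rgs5 of the mural list was higher (log2 5.78, SE 0.67, adjusted p = 0.00105). In that test Myh11 (log2 -2.94, SE 0.42) and Acta2 (log2 -2.11, SE 0.40), the smooth muscle genes, were lower. Itga6, a laminin-binding integrin, was at 505.3 and 99.4 CPM in the lining-gene-marked cells against 9.2 and 10.0 CPM. It passed in all Col22a1 cells (log2 2.78, SE 0.61, adjusted p = 0.0289), but not without the P11 library (adjusted p = 0.143) or without the P18 library (0.0702).

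Other genes named as higher by the rule were Rab37 and Cystm1, Aldh1a3 (a retinoic acid-forming enzyme), the receptors Gpr1 and Lpar3, the homeobox gene Dlx3, the scaffold Slc9a3r1 and Rapgef4, with log2 folds from 2.905 to 6.396. Without the P18 library Dlx3 (adjusted p = 0.0974) and Slc9a3r1 (0.0923) did not pass. Rapgef4, an exchange factor for Rap driven by cyclic AMP, had a small spread: it was at 68.4, 58.0 and 98.1 CPM in Col22a1 cells and at 2.42, 3.03 and 6.59 CPM in Tnmd cells (log2 4.08, SE 0.29, adjusted p = 0.000165). It was above the Tnmd cells in both main kinds, at 108.4 and 131.0 CPM in the Chodl/Ptx4-marked and 46.2 and 44.2 CPM in the lining-gene-marked cells at P11 and P56.

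Some bone genes were higher, beside the bone-gene-marked cells, which were themselves picked on Bglap, Bglap2 and Ibsp. Bglap (log2 7.69, SE 0.71, adjusted p = 0.000436), Dmp1 (log2 5.91, SE 0.93, adjusted p = 0.00526), a matrix phosphoprotein of osteocytes, and the protease Phex (log2 4.66, SE 0.82, adjusted p = 0.00971) were the 3 of 11 tested bone and mineral genes that were higher, and none was lower. Ibsp (log2 -0.77, SE 1.36) and Alpl (log2 -0.20, SE 0.91) did not pass. Without the P18 library the adjusted p of Dmp1 was 0.0620. At P18 Bglap stood at 29540 CPM in Col22a1 cells against 78.7 CPM in Tnmd cells, and at P56 at 397.3 against 1.14 CPM. The P56 level came almost wholly from 1 cell with 806 UMIs. With the 9 bone-gene-marked cells left out, an alternative chosen after seeing the data, 375 genes were higher and 576 lower.

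Genes lower in all Col22a1 cells included several secreted proteins of adult tendon and connective tissue. Angptl7, a secreted factor of adult tendon, was at 0, 0 and 185.4 CPM in Col22a1 cells against 128.2, 339.9 and 3440 CPM in Tnmd cells (log2 -5.52, SE 0.71, adjusted p = 0.00166). Igfbp3, Egfl6, Sfrp2, Myoc, Fst, Gpm6b, Clu and Itga2 followed, with log2 folds from -4.79 to -3.48, as did Ucma, a cartilage matrix protein (log2 -4.86, SE 0.64). Myoc did not pass without the P18 library (adjusted p = 0.0640). Of 17 connective tissue fibroblast genes 6 were lower and none higher (median log2 -1.29), among them Cxcl12, Clec3b (adjusted p = 0.0509 without the P18 library), Penk and Dpp4. Of 22 tendon genes tested, 8 were lower and none higher (median log2 -1.18), with Angptl7, Igfbp6, Comp and Chad the lowest.

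Because many Col22a1 cells lack Tnmd while every comparison cell carries it, the test was also run on Col22a1 cells with at least 1 Tnmd UMI. These numbered 39, 4 and 194 at P11, P18 and P56, and 38, 2 and 182 of them were Chodl/Ptx4-marked. Of 11132 genes tested, 376 (3.38%) were higher and 504 (4.53%) lower; 88 of the 167 genes higher in all Col22a1 cells and 222 of the 259 lower ones were called again. The adjusted p-values of this fit are very small because edgeR estimated an infinite prior weight for the spread and so used the fitted trend of the spread for every gene. At P18, 2 bone-gene-marked cells held 52804 of the 62877 UMIs in this sum. Without the P18 library, 483 (4.00%) of 12080 genes were higher and 589 (4.88%) lower. Of the genes named below as called in this fit, Kera, Col3a1, Bmper, Prg4 and Mef2c did not pass in that fit, and Col9a3 and Phex were not tested there.

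Rapgef4 was higher in this comparison as well (log2 4.47, SE 0.35, adjusted p = 4.09e-34 by edgeR), at 97.3, 63.6 and 116.4 CPM against 2.42, 3.03 and 6.59 CPM. Tnfrsf21, a death receptor, followed at 91.3, 31.8 and 111.4 CPM against 4.50, 8.58 and 6.24 CPM (log2 3.78, SE 0.34). Prph, which encodes the intermediate filament peripherin, was at 137.9, 143.1 and 182.9 CPM against 8.43, 4.37 and 19.95 CPM (log2 3.66, SE 0.32). Cdh2, N-cadherin, was at 89.2, 95.4 and 98.6 CPM against 15.7, 3.87 and 11.95 CPM (log2 2.85, SE 0.32). In each of these genes, which were named for their large folds, the lowest Col22a1 library stood above the highest Tnmd library. The share of all tested genes that did so was not counted. Their P18 levels rest on 4 cells with 62877 UMIs in all, of which 2 bone-gene-marked cells held 52804. Tmem173 (Sting), Insc, Scube2, Dapk2, Epb41l4a, Cotl1, Gas2 and the metalloproteinase inhibitor Timp1 were also higher in 3 of 3 libraries, with log2 folds from 2.60 to 3.55.

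Tendon genes split in the Tnmd-positive comparison. Of 22 tested, Scx (log2 1.35, SE 0.31, adjusted p = 0.000347 by edgeR) and the matrix protein Cilp (log2 1.73, SE 0.34) were higher and 9 were lower, with a median log2 of -0.48 against -0.07 over all genes. The lower ones were Angptl7, Igfbp6, the small proteoglycans Dcn, Prelp, Kera and Fmod, and Comp, Chad and Cilp2 of the fibril-associated matrix. Fmod (fibromodulin) was at 1402 and 2608 CPM in Chodl/Ptx4-marked cells at P11 and P56, against 4869 and 5483 CPM in Tnmd cells. Thbs4 did not pass the test; it stood at 3998 and 11220 CPM in Chodl/Ptx4-marked cells and 1997 and 4276 CPM in Tnmd cells.

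Collagens moved in both directions. Of 29 tested, Col26a1, Col24a1, Col13a1, Col18a1, Col4a2 and Col4a1 were higher and 8 were lower (median log2 -0.20). Col13a1, a membrane collagen of cell junctions, was at 172.4, 95.4 and 109.3 CPM against 19.1, 6.22 and 17.7 CPM (log2 2.87, SE 0.31, adjusted p = 2.36e-17 by edgeR), although 2 bone-gene-marked cells shared in its P18 level. Col18a1, a basement membrane collagen, was at 454.3, 31.8 and 480.0 CPM against 63.2, 15.98 and 36.3 CPM. Col26a1 was at 196.4 and 78.1 CPM in Chodl/Ptx4-marked cells at P11 and P56 and at 1.8 CPM in Tnmd cells at both ages (log2 5.79, SE 0.40). The lower collagens included Col14a1 (log2 -2.60, SE 0.36), Col3a1 (log2 -1.40, SE 0.33) and Col15a1 (log2 -1.39, SE 0.32), and the cartilage collagens Col9a3 and Col2a1.

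Of the 30 tested genes of basement membrane and muscle adhesion, 5 were higher and none was lower (median log2 0.11). Frem1, a basement membrane protein, was at 63.2 and 72.4 CPM in Chodl/Ptx4-marked cells at P11 and P56 and at 0.8 and 1.6 CPM in Tnmd cells (log2 5.40, SE 0.45). Lama2, the laminin chain that muscle fibres bind, was at 65.5 and 274.1 CPM against 24.97 and 53.4 CPM (log2 1.60, SE 0.33), and Lamc1, the chain it pairs with, had a log2 fold of 1.03 (SE 0.32). The integrins Itga10 (log2 1.83, SE 0.30) and Itga8 (log2 1.57, SE 0.39) were higher. Itga7, the integrin of muscle fibres at the junction, was at 0 and 4.1 CPM and was not tested, as it fell below the count filter in this comparison.

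Among 27 adhesive and matricellular genes tested, 4 were higher and 10 lower (median log2 -0.66). Postn (periostin), which binds collagen and integrins, was at 3275 and 1900 CPM in Chodl/Ptx4-marked cells at P11 and P56 against 957.5 and 74.8 CPM in Tnmd cells and 9.6 and 1.4 CPM in lining-gene-marked cells (log2 2.22, SE 0.36). Tnc (tenascin-C, log2 1.40, SE 0.32), Fbn2 (fibrillin-2, log2 2.50, SE 0.34) and Sparcl1 (log2 2.85, SE 0.37) were the other higher ones. Sparcl1 was shared with the lining-gene-marked cells, at 550.0 and 368.5 CPM against 808.1 and 994.8 CPM in the Chodl/Ptx4-marked. Eln (elastin), Vcan, Tnxb and Smoc2 were among the lower genes.

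**Figure D4:**
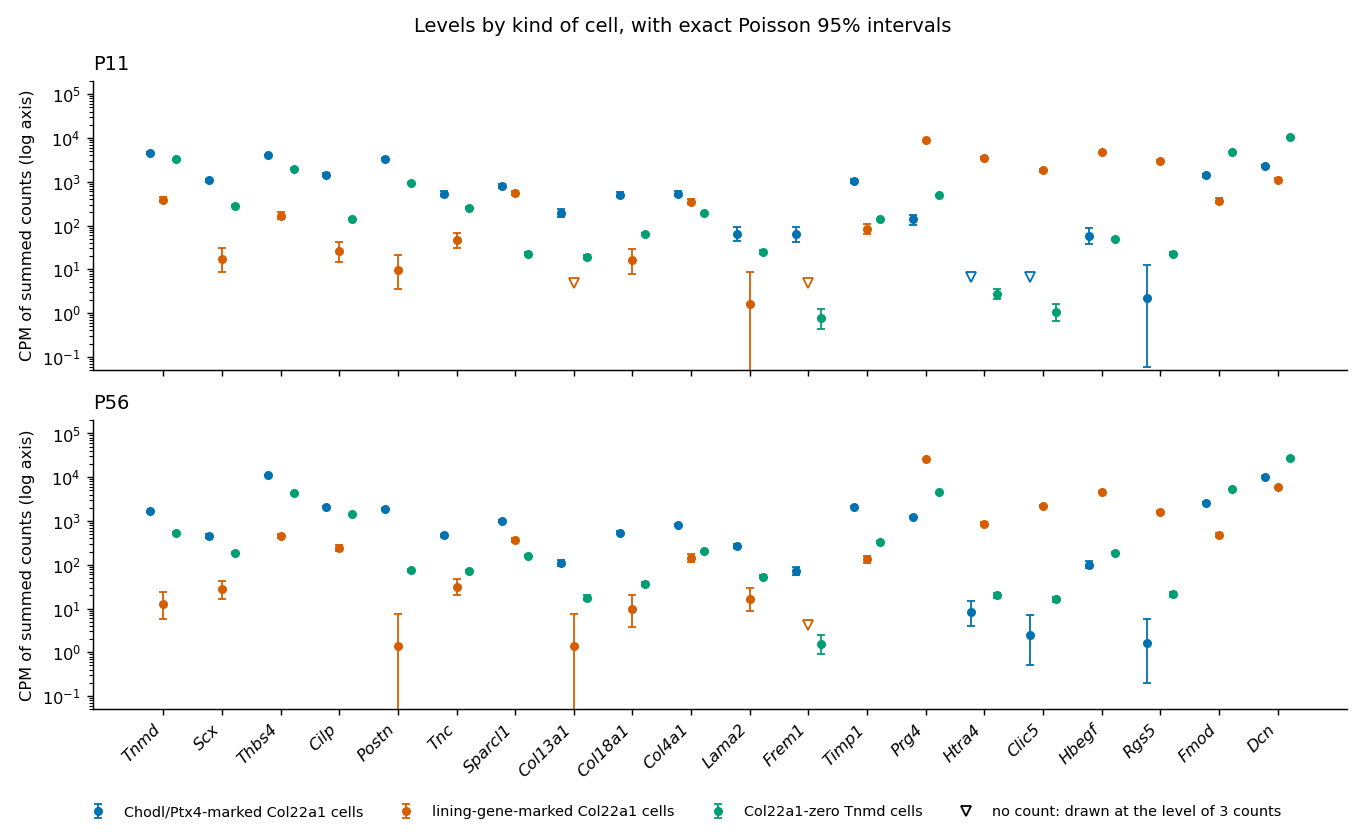
CPM of summed counts (y axis, log axis) of 20 genes in Chodl/Ptx4-marked Col22a1 cells, lining-gene-marked Col22a1 cells and Tnmd cells at P11 (top) and P56 (bottom); bars are exact Poisson 95% intervals and open triangles mark genes without a count. Postn, Col18a1 and Timp1 lie above the Tnmd cells in the Chodl/Ptx4-marked cells and below them in the lining-gene-marked cells at both ages, and Prg4, Htra4, Clic5, Hbegf and Rgs5 are highest in the lining-gene-marked cells.

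Pathway genes were taken from lists of ligands, receptors, inhibitors and targets. For TGF-beta and BMP, 5 of 41 tested genes were higher and 9 lower (median log2 -0.26). The ligands Tgfb1 (log2 1.69, SE 0.29), Bmp6 (log2 1.22, SE 0.34) and Mstn (myostatin, log2 1.16, SE 0.34) were higher, as were the receptor Acvr1 and the latent-complex protein Ltbp2. In Chodl/Ptx4-marked cells Mstn stood at 191.9 CPM at P11 and 19.5 CPM at P56. Tnmd cells had 27.4 and 31.6 CPM of Mstn, so the marked cells lay below them at P56. Tgfb1 was higher in all Col22a1 cells also (log2 1.33, SE 0.25, adjusted p = 0.0129 by edgeR; 0.100 without the P56 library), and it stood above the Tnmd cells in each main kind, at 112.9 and 157.8 CPM and at 94.0 and 51.1 CPM, against 36.0 and 36.6 CPM. The secreted inhibitors Chrdl1 (log2 -3.55, SE 0.48), Bmper and Fst and the BMP target Id1 (log2 -1.91, SE 0.34) were lower. In the Wnt, Hedgehog, FGF and Notch list 6 of 39 were higher and 8 lower (median log2 -0.28): the ligand Wnt5a, the receptor Notch1 with its target Heyl, and the FGF feedback inhibitors Spry1 and Spry4 rose, and the Wnt inhibitors Sfrp1, Sfrp2, Dkk2, Dkk3 and Wif1 fell. Hhip was higher as well (log2 1.85, SE 0.36), beside lining-gene-marked cells with Tnmd in this sum (1 at P11, 5 at P56); it was at 0 and 6.5 CPM in Chodl/Ptx4-marked cells.

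Of 35 tested regulators of limb mesenchyme, 8 were higher and 2 lower (median log2 0.20). Etv4, an ETS factor that responds to FGF, was at 130.9 and 97.6 CPM in Chodl/Ptx4-marked cells at P11 and P56 against 14.5 and 11.8 CPM in Tnmd cells (log2 2.54, SE 0.32). Meox1, a homeobox gene of the somite, was at 153.5 and 218.8 CPM against 23.9 and 27.7 CPM (log2 2.51, SE 0.32), and Msx1 at 92.6 and 90.3 CPM against 6.0 and 32.7 CPM (log2 2.11, SE 0.33). Eya4, Six2, Tcf4 and Runx1 were the next, and Mef2c (log2 0.92, SE 0.31) was called too, although its log2 fold was -1.12 in all Col22a1 cells once the bone-gene-marked ones were left out. Prrx1 and Klf4 were lower. Kcnk2, a stretch-sensitive potassium channel, was higher (log2 3.49, SE 0.38) and Cdc42ep3 lower among 10 tested mechanosensitive genes; Kcnk2 was at 36.1 and 141.5 CPM against 4.6 and 3.1 CPM.

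**Figure D5:**
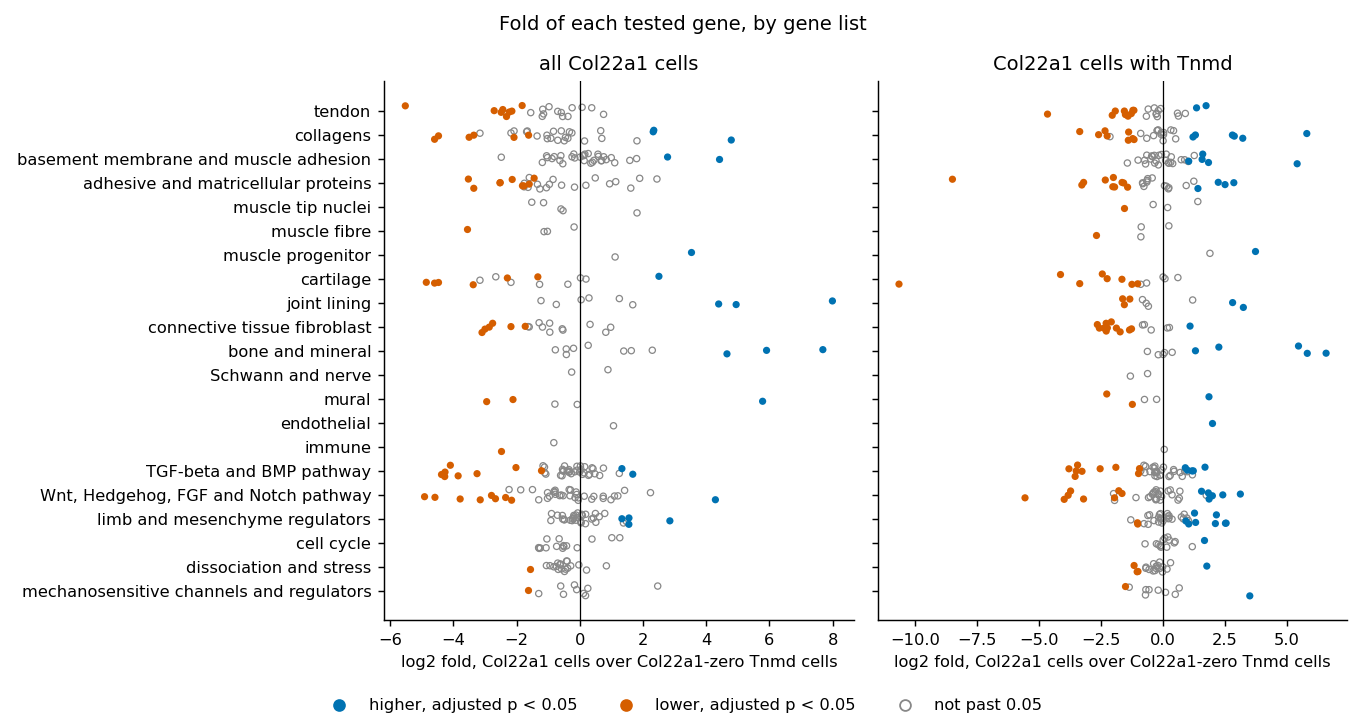
Log2 fold of every tested gene (x axis), grouped by gene list, for all Col22a1 cells (left) and for Col22a1 cells with Tnmd (right) over Tnmd cells; filled points passed an edgeR adjusted p of 0.05. Basement membrane genes and joint lining genes show filled points to the right of 0 on the left panel and none to the left, and connective tissue fibroblast genes lie mostly to the left of 0 in both.

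Markers of other cell types moved with these groups as follows. Cartilage genes were lower (8 of 13 tested, none higher, median log2 -1.26), beside a Col2a1 level of 7338, 16350 and 6.7 CPM in the Tnmd cells at P11, P18 and P56, so the comparison cells of the first 2 ages included cells with cartilage transcripts; their part in the result was not tested. Of the fibroblast list 11 of 17 were lower, Ly6a and Cd34 among them, and Ebf1 was higher. Bone genes higher in this fit were Dmp1, Bglap, Phex, Runx2 and Mgp, beside the 2 bone-gene-marked cells at P18 and 1 at P56; Bglap and Dmp1 were at 0 in all Chodl/Ptx4-marked cells, and Mgp, a calcification inhibitor, was at 7630 and 37460 CPM in them against 1817 and 4365 CPM. Clic5 and Htra4 were higher and Prg4, Has1 and Vcam1 lower among 9 lining genes, beside 1 lining-gene-marked cell with Tnmd at P11 and 5 at P56. Ecscr, a surface protein of endothelium, was higher (log2 1.97, SE 0.38) at 47.4 and 50.4 CPM in Chodl/Ptx4-marked cells, whereas Pecam1 was at 4.5 and 2.4 CPM there. The 10 endothelial genes summed to 70.0 and 61.8 CPM, against 15.3 and 33.8 CPM in Tnmd cells. Muscle fibre genes were mostly under the filter (20 of 24), and Tnni2 was lower, as was Cryab of 4 tested genes for nuclei at fibre ends. Megf10, a receptor of muscle progenitors, was higher (log2 3.71, SE 0.67), and Rgs5 was higher and Myh11 and Acta2 lower among 5 mural genes. For cell division, 1 of 15 genes, Tyms, was higher. Among 19 genes of dissociation stress Egr2 was higher and Atf3, Zfp36 and Nfkbia were lower. None of 2 tested Schwann cell genes and of 1 tested immune gene passed, and no red cell gene reached the filter.

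Between the P11 and P56 libraries, 100 of 6539 genes with at least 50 UMIs (1.53%) were at least 4-fold higher at P56 in all Col22a1 cells and 55 (0.841%) at least 4-fold lower. These values mix the kinds, whose proportions differ between the libraries. Within Chodl/Ptx4-marked cells 109 of 3920 genes (2.78%) were higher at P56 and 50 (1.28%) lower, within Tnmd-positive cells 115 of 4440 (2.59%) and 44 (0.991%), and within lining-gene-marked cells 47 of 3793 (1.24%) and 28 (0.738%). Xist, the transcript of the inactive X chromosome, was at 1106 CPM in Chodl/Ptx4-marked cells at P11 and was not detected in any of the 239 Col22a1 cells at P56, so the sex of the pooled animals and age cannot be told apart.

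In Chodl/Ptx4-marked cells levels at the outer ages can be set side by side, with Tnmd cells beside them. Tnmd was at 4510 CPM at P11 and 1659 CPM at P56, and Chodl at 2892 and 1450 CPM; Ptx4 was at 595.9 and 1171 CPM. Col1a1 was at 26210 and 10270 CPM, against 74940 and 6817 CPM in Tnmd cells. Dcn was at 2266 and 10300 CPM, against 10730 and 28070 CPM. Postn was at 3275 and 1900 CPM, while Tnmd cells had 957.5 and 74.8 CPM of it. The P18 library, with 2 such cells, had 2780 CPM of Tnmd, 2085 of Chodl and 1588 of Postn.

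Genes with the largest rise to P56 in Chodl/Ptx4-marked cells included Fam159b (2 UMIs or 4.5 CPM at P11, 410.8 CPM at P56), the oxygenase Fmo2 (no UMI at P11, then 161.9 CPM, at least 4.58 on the log2 scale against a floor of 3 counts) and the metallothionein Mt2 (370.2 to 7801 CPM). Tnmd cells had 4.31 CPM of Fam159b and 17.6 CPM of Fmo2 at P56, and Mt2 was at 9506 CPM in them. Among those with the largest fall, C1qtnf3 was at 370.2 and then 1.63 CPM, the imprinted transcripts H19 and Mest at 483.1 and 954.8 CPM and then 0 and 87.0 CPM, and Mstn at 191.9 and 19.5 CPM. Tnmd cells likewise had less H19 (314.8, then 1.23 CPM) and Mest (97.4, then 6.15 CPM) at P56, but their Mstn was at 27.4 and 31.6 CPM. None of these differences has a replicate.

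In lining-gene-marked cells Prg4 was at 8911 CPM at P11 and 26100 CPM at P56, and Htra4 at 3485 and 861.3 CPM. Calb2 (calretinin, a calcium-binding protein) was at 1377 and 168.4 CPM, and nearly absent from Tnmd cells at 0.142 and 0.703 CPM. Fap, a fibroblast surface protease, was at 481.4 and 46.9 CPM, and Cthrc1 at 208.8 and 8.28 CPM. Pcolce2, an enhancer of collagen processing, was at 55.8 and 973.1 CPM. The complement gene C4b and the chemokines Ccl2 and Ccl7 each had 1 UMI at P11 and stood at 106.3, 98.0 and 98.0 CPM at P56; in Tnmd cells at P56 they were at 379.4, 1137 and 673.1 CPM.

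The Gli1-lineage plates, libraries that played no part in the rule, held 18 wells with at least 2 Col22a1 counts among 647 kept wells, on 5 of 7 plates. Only the P42 plate had at least 3 wells of each class, so no test was made. By the same marker rules 7 wells were Chodl/Ptx4-marked, 6 were bone-gene-marked, 5 had no marker set and 0 were lining-gene-marked. A bone-gene-marked well at P42 with 6686 counts met the rule by 10 counts of Ibsp alone. It had no Bglap or Bglap2 and 239 counts of Prg4. Ibsp was also found in 20 of 29 Tnmd wells of that plate. The Chodl/Ptx4-marked wells, 2 at P11, 1 at P14 and 4 at P42, had 16 to 41 counts of Tnmd, 19 to 37 of Postn and 7 to 73 of Thbs4. They had no Htra4, Clic5 or Tspan15, which the marker rule keeps below 2 counts together. Scx was at 0 in 5 of these 7 wells and at 3 and 2 counts in the others. All 4 Col22a1 wells of the P21 and P28 plates were bone-gene-marked, with 52 to 597 counts of Bglap. At P42, Chodl was at 321.4 CPM in the sum of 11 Col22a1 wells and 8.6 CPM in Tnmd wells, and Ptx4 at 278.5 and 51.4 CPM. Only 4 of these 11 wells had Chodl, the same 4 that were Chodl/Ptx4-marked, and 5 of the 11 had Ptx4.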

How the data were processed

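The authors deposited whole-number UMI counts per gene and cell barcode, which were used as deposited; per the file headers, the 10x software was version 3.1.0 for P11 and P18 and 3.0.2 for P56. Plate counts per well were also used as deposited by the authors. The submitters' processing notes name mm10; aligner and annotation are not given in the sources used here. Kept cells had 500 or more detected genes and no more than 10% of counts from mitochondrial genes.

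Counts were summed per library and class and tested with edgeR 4.0.16 (quasi-likelihood test, TMM, library as block, at least 10 counts in at least 3 of 6 sums, Benjamini-Hochberg adjusted p under 0.05) in R 4.3.3; the genes of the cell rule, Chodl and Ptx4 were not tested. Each age is 1 library of pooled mice, so p-values do not measure the spread between mice. They weigh a gene's own spread between libraries against a trend fitted over all genes. For all Col22a1 cells the trend counted as 8.98 degrees of freedom beside 2 from the gene. For cells with Tnmd only the trend was used. Ages were compared without a test, by CPM with exact Poisson 95% intervals; shares have exact Clopper-Pearson 95% intervals. Both cover counting error only. Depth was equalised by drawing 3000 UMIs per cell. On simulated counts (10912 genes), the test found 76 of 100 genes changed by 2 on the log2 scale and 14 of 100 changed by 1, with 1 false call in 91. The simulation gave every gene the same spread (dispersion 0.0578) and each changed gene the same fold in all 3 libraries. The real sums mix kinds of cell in proportions that differ between libraries, so these rates need not hold for them.

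Genes were named as list members by largest log2 fold, plus the 15 higher and 10 lower genes with the largest log2 fold that moved the same way in 3 libraries at 20 CPM or more, plus the 8 with the largest rise and fall between P11 and P56; a few others were chosen after their values were seen. The cells, lists and rules were chosen with earlier results of these data known. Alternatives varied size factors (DESeq2 1.42.0), filters, block, cell rules, depth and doublets (Scrublet in scanpy 1.11.5). A few genes that these rules name are not reported here.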

Additional observations from a re-analysis of the deposited data

Results flagged for a closer look

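Of the list genes, 5 lay below the Tnmd cells at P11 and above them at P56 when all Col22a1 cells were summed; these opposite directions were not tested. The log2 ratio of Alpl, alkaline phosphatase, was -3.50 at P11 and 3.21 at P56, and that of Ibsp, a bone sialoprotein, was -4.32 and 3.75. At P56 the single bone-gene-marked cell had 1233 CPM of Alpl and 5333 CPM of Ibsp, and Ibsp was at 0 in the Chodl/Ptx4-marked and lining-gene-marked cells. Cnmd, chondromodulin, had ratios of -2.04 and 2.31, and it was at 35.1 and 33.1 CPM in lining-gene-marked cells while Tnmd cells had 80.5 CPM at P11 and 2.37 CPM at P56. Col9a2, a cartilage collagen chain, had ratios of -4.37 and 4.97, with 20.3 and 39.0 CPM in Chodl/Ptx4-marked cells and 183.8 and 0.879 CPM in Tnmd cells. The Wnt inhibitor Sfrp5 had ratios of -2.86 and 2.02, the first against a floor of 3 counts because no UMI was seen at P11. In Col9a2 and Cnmd the Tnmd cells thus differed more between the libraries than the marked cells did.

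At P56, 105 cells with at least 2 Col22a1 UMIs also carried Cdh5 and lay outside the rule. They had a median of 1 and at most 8 Cdh5 UMIs.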

How the results depend on the processing

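The counts of 167 higher and 259 lower genes became 411 and 617 without the filter, 1 and 0 with 10 counts in all 6 sums, and 0 and 0 without the library block. They became 376 and 504 in cells with Tnmd, 375 and 576 without bone-gene-marked cells, and 483 and 589 in cells with Tnmd and without P18. Leaving out each library in turn gave 148 to 171 higher and 179 to 260 lower. DESeq2 called 150 and 208. The fit without the filter tested 19408 genes and the fit with 10 counts in all 6 sums tested 1668, against 11258 in the main fit. The causes of all these differences were not tested. Alternatives without bone-gene-marked cells, without P18 in Tnmd cells, and without the Cdh5 exclusion were chosen after seeing the data.

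Reversed log2 folds, in cells with Tnmd and then also without P18, were -1.63 and -1.50 for Has1, -0.37 and -0.33 for Osr2, -1.27 and -1.38 for Pdgfra, and -0.15 and -0.41 for Slc9a3r1; Prg4 was at -1.34 in cells with Tnmd, and Mef2c at -1.12 without bone-gene-marked cells. Over 164 named genes, 2135 values kept direction and call, 279 lost the call, 207 gained it and 10 reversed.

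The P11 share was 1.81% under a stricter cell filter (1000 genes, 5% mitochondrial) and 1.65% after thinning. At P18 it was 0.351% of cells without Ptprc and Cdh5 and 0.0460% after thinning. At P56 it was 7.17% with 1 Col22a1 UMI, 3.66% with 3, 2.69% under the stricter cell filter and 6.70% without the Cdh5 exclusion. Ptx4 was found in 53.5% of P11 Col22a1 cells without thinning and 40.9% with it (Tnmd cells 42.1% and 17.7%).

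Between P11 and P56, 47 and 28 genes were higher and lower at P56 in lining-gene-marked cells. In all Col22a1 cells the main counts of 100 and 55 became 192 and 121 with at least 20 UMIs, and 334 and 458 at 2-fold. Under the stricter cell filter 29 genes were lower in all Col22a1 cells. No paired analysis was possible because each group has a single library, which concerns ages only: the classes were compared within libraries, with the library as a block. Only 1 plate had enough wells, so plates were not left out in turn.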
